A study of Mus musculus with 8 samples.

Results

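The 4 libraries described here hold messenger RNA of resident microglia, the long-lived macrophages of neural tissue, isolated from injured mouse retina. They are the microglial libraries among 8 in all, chosen by their labelled cell type and titles, and the other 4 hold infiltrating macrophages. Every library came from mice with the genotype Msi1-CreERT2/+; R26R-DTA/+ on a mixed background of C57BL/6 and 129, aged about 5 months and taken on day 7 after injury. Msi1-CreERT2 is a Cre recombinase fused to a tamoxifen-responsive receptor domain and placed under the control of Musashi1, and R26R-DTA releases diphtheria toxin A in cells where Cre has acted. The labels give no uninjured retina, so all values below belong to microglia in damaged tissue, and a level cannot be set against a resting one. What the word cont in the titles stands for, how the cells were sorted, the sex of the mice and whether each library is 1 animal or a pool are not stated in the labels. The spread between the 4 libraries may therefore be technical, biological or both, and no test was applied to it. The libraries are called microglia 1 to 4, after their titles.

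Microglia enter neural tissue from embryonic yolk-sac progenitors and renew themselves there. They survey neurons through fine processes, engulf debris and synapses, digest what they take up in lysosomes and produce most of the complement C1q of the tissue. In the retina they lie mainly in the synaptic layers and move towards dying photoreceptors after damage. The unit of every level is FPKM, the number of sequenced fragments divided by transcript length in kilobases and by library size, so that levels can be compared between genes. Since these are bulk libraries, fewer cells of a type and less RNA per cell cannot be told apart in any value below.

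After symbols of microRNAs, snoRNAs and failed estimates were left out, 21837 symbols remained, and their FPKM summed to between 274056 and 350117 per library. By an approximate estimate the depth was lowest in microglia 1 (11.7 M fragments), with 18.6 to 21.4 M for microglia 2 to 4. Microglia 2 stood apart: it held 5971 genes at 1 FPKM or more against 8115 to 9409 elsewhere, and 10766 symbols were listed at 0 in it against 5479 to 7891. Transcripts that depend on the animal or on blood also differed. The 4 Y-linked genes measured summed to 25.8, 11.7, 16.5 and 0.0533 FPKM in microglia 1 to 4, and 5 haemoglobin genes to 215, 227, 3211 and 1.16 FPKM. Xist, also on the sex-linked list, stood at 0.000218, 0.000579, 0.000779 and 4.78 FPKM. An exact 0 in these tables can be a failed estimate, so such genes are only said to be listed at 0. Microglia 2 and 3 set many of the ranges, so counts and list medians are also given without them where they change most.

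The libraries expressed the genes by which microglia are known. Sall1, a zinc-finger repressor that maintains microglial identity (mm9, chr8:91551143-91568061), stood at 26.8, 17.7, 8.61 and 17.8 FPKM in microglia 1 to 4. P2ry12, the ADP receptor that steers microglial processes (chr3:59020193-59066753), stood at 152, 116, 100.05 and 86.8 FPKM. Sparc, a secreted matrix-binding protein abundant in microglia (chr11:55208003-55233582), stood at 591, 159, 694 and 526 FPKM. All 3 defining markers were thus present in every library, with Sall1 lowest in microglia 3, Sparc lowest in microglia 2 and P2ry12 closest between libraries. Tmem119, a surface protein of microglia, stood at 179, 339, 254 and 319 FPKM. Cx3cr1, the receptor for the neuronal chemokine fractalkine, stood at 115, 56.2, 101 and 140 FPKM. Csf1r, the receptor for the growth factors microglia need to survive, stood at 278, 224, 292 and 379 FPKM. No library was lowest in all of these genes: microglia 2 was lowest for Cx3cr1 and Csf1r but highest for Tmem119. Of the 30 genes on the list of microglial identity, 30 reached 1 FPKM in all 4 libraries, beside 19.8% of all symbols (4328 of 21837).

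**Figure D1:**
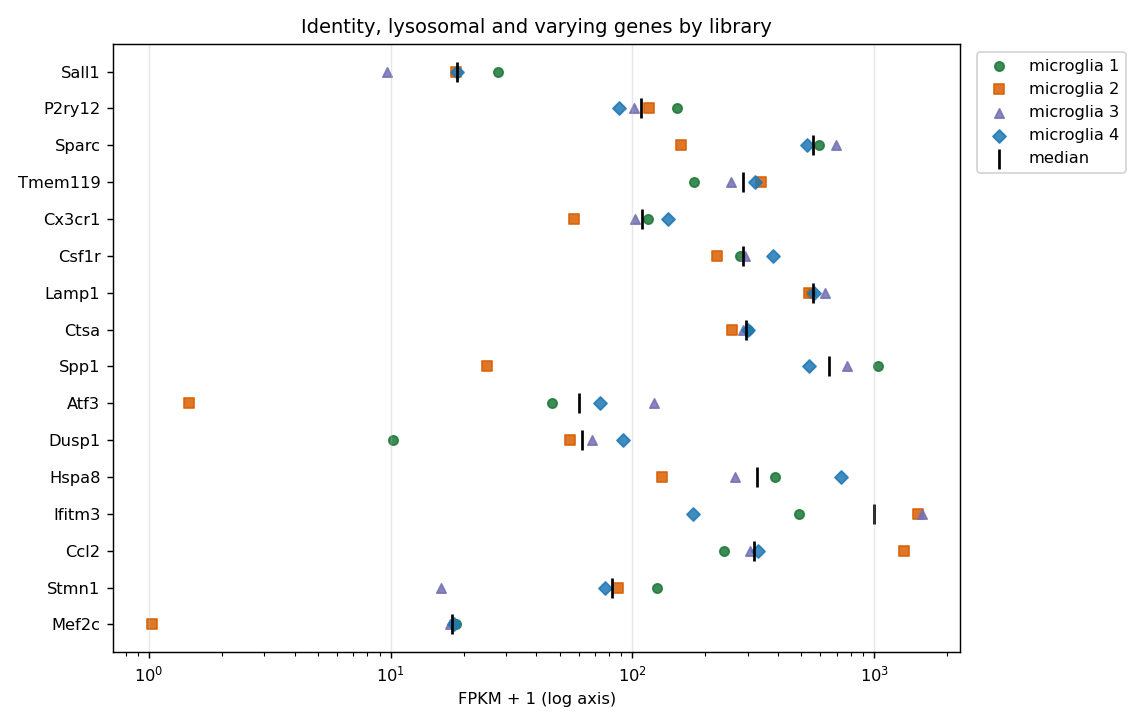
FPKM + 1 on a log axis for 16 genes (rows), with 1 marker per microglial library and a black bar at the median of the 4. The lysosomal genes Lamp1 and Ctsa lie within narrow bands and the identity genes within wider ones (Sparc has a range of 2.12 on the log2 scale), while microglia 2 falls far to the left for Spp1, Atf3 and Mef2c and microglia 1 for Dusp1.

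The genes detected in all 4 libraries made up 36.3% of those detected in any. Of 11908 symbols at 1 FPKM or more in at least 1 library, 4328 were so in all 4, 2639 in 3 libraries, 2154 in 2 and 2787 in 1. Raising the level to 10 FPKM in all 4 left 1746 genes, 100 FPKM left 290 and 1000 FPKM left 23. Microglia 2 limited the count most: without it 6140 genes reached 1 FPKM in the remaining libraries.

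A few transcripts dominated the RNA. The 10 highest genes of each library held 19.6%, 20.2%, 20.3% and 20.9% of its FPKM, the 100 highest held 44.5%, 46.9%, 47.3% and 43.4%, and 154, 126, 121 and 173 genes were enough to reach 50% of it. The most abundant gene by median was Ctsd, the lysosomal aspartic protease cathepsin D (mm9, chr7:149561821-149573775), at 12527, 9296, 14608 and 16462 FPKM in microglia 1 to 4. It ranked first in every library except microglia 2, where Fth1, the heavy chain of the iron store ferritin, stood at 10055 FPKM. Fth1 stood at 6295, 5953 and 5427 FPKM in microglia 1, 3 and 4, and Ftl1, the ferritin light chain, at 3823.5, 6114, 3476 and 3679.6 FPKM. Both ferritin chains were highest in microglia 2. Tmsb4x, which encodes the actin-sequestering peptide thymosin beta 4, ranked second by median at 7661, 7474, 5814 and 9129 FPKM. Cst3, the secreted protease inhibitor cystatin C, stood at 3989, 4563, 9135.5 and 2909 FPKM, with the highest value in microglia 3. Ctsd, Tmsb4x, C1qb, Fth1, C1qc, Cst3 and Ftl1 were among the 10 highest genes of all 4 libraries.

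**Figure D2:**
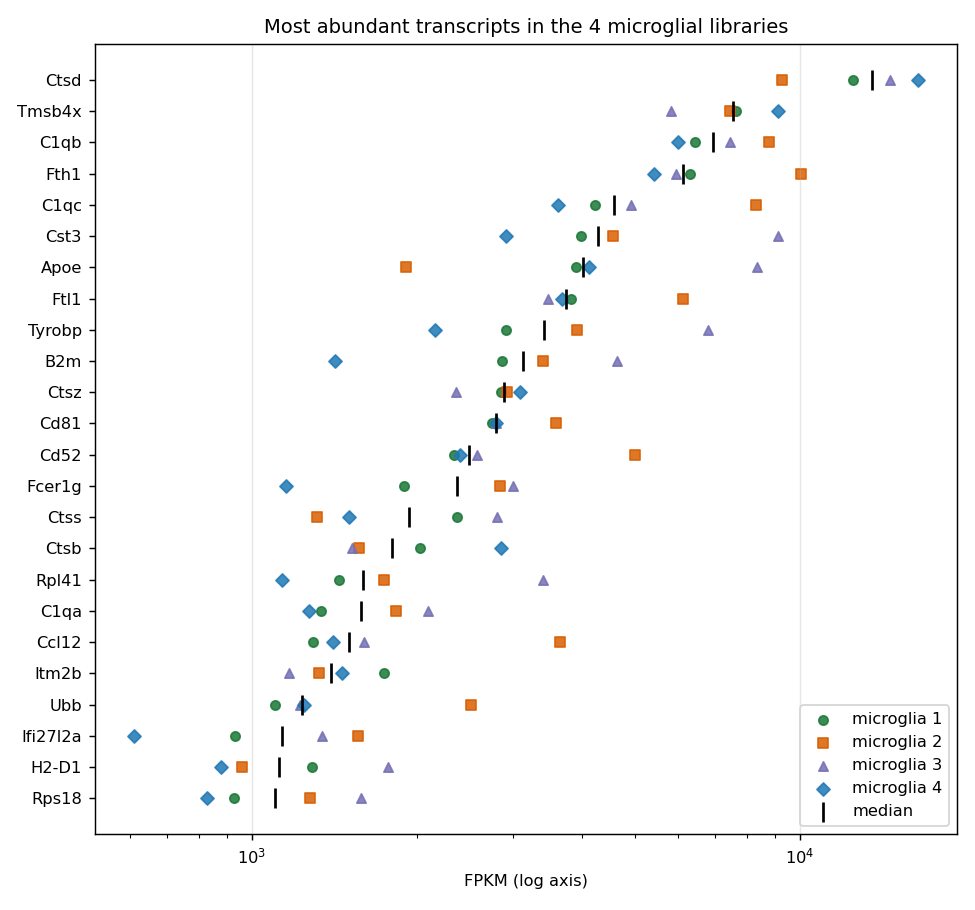
FPKM on a log axis for 24 of the 25 named genes of highest median FPKM (rows, in order of the median), with 1 marker per microglial library and a black bar at the median. Ctsd lies to the right of all other genes by its median, and Apoe, B2m, Tyrobp and Cst3 show the widest spread, with microglia 3 at the right-hand end of each.

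The 3 chains of complement C1q, which recognises synapses, dying cells and immune complexes, are encoded side by side on chromosome 4 (mm9, C1qb at 136436061 to 136442092, C1qc at 136445717 to 136448829 and C1qa at 136451831 to 136454759). C1qb stood at 6433, 8791, 7467 and 5989.9 FPKM in microglia 1 to 4. C1qc stood at 4232, 8319.9, 4917 and 3617 FPKM. C1qa stood at 1336, 1829.6, 2099 and 1272 FPKM, below the other chains in every library. The 3 chains were lowest in microglia 4, and C1qb and C1qc were highest in microglia 2. Tyrobp, the adaptor that signals for Trem2, stood at 2905, 3927, 6801 and 2161 FPKM, and Fcer1g, the signalling chain of Fc receptors, at 1895, 2836, 3003 and 1155 FPKM. Both adaptors were highest in microglia 3 and lowest in microglia 4.

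Grouped by class, the 100 genes of highest median held 17 ribosomal proteins, 12 genes known to rise in microglia around injury and neurodegeneration, 10 genes of microglial identity, 7 of the lysosome list and 5 of the cytoskeleton, while 32 were in no list, of which some are clone or predicted-gene symbols (8 of the 100). The 12 injury-associated genes alone held 12.7%, 11.4%, 11.9% and 14.3% of the FPKM of microglia 1 to 4, more than the 10 identity genes with 6.85%, 7.84%, 7.10% and 6.23%. The 12 were Ctsd, Fth1, Apoe, Ctsz, Cd52, Ctsb, Ccl12, Cd63, Cd9, Ccl4, Cst7 and Spp1. Ctsd and Fth1 held a large part of this share, so the comparison depends on the list in which these very abundant genes were placed. Apoe, the lipid carrier apolipoprotein E, stood at 3903, 1915, 8365 and 4130.1 FPKM, lowest in microglia 2 and highest in microglia 3. Ccl12, a chemokine that attracts monocytes, stood at 1290.1, 3647, 1599.9 and 1408.5 FPKM, and was highest in microglia 2. Cd52, a small surface glycoprotein of leukocytes, stood at 2341, 5012, 2579 and 2394 FPKM, and microglia 2 lay far above 3 close values. Of the 100 genes, 66 were among the 100 highest of every library, and 140 genes were among the 100 highest of at least 1.

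Lysosomal genes were abundant and close between libraries. All 34 genes of the lysosome list reached 1 FPKM in the 4 libraries, and their median level was 127 FPKM. Ctss, the protease cathepsin S, stood at 2367, 1315, 2801 and 1503 FPKM, Cd68, a heavily glycosylated lysosomal membrane protein of macrophages, at 913, 1224, 827 and 1079.9 FPKM, and Grn, the progranulin precursor, at 847, 595, 956 and 785 FPKM. The spread of a gene is given as its range, the log2(FPKM + 1) of the highest library minus that of the lowest, among genes with a median of at least 5 FPKM. Lamp1, a major protein of the lysosomal membrane, had the narrowest range on the list, 0.22 on this log2 scale, at 545, 537, 626 and 565 FPKM (568 ± 40.5, SD, n = 4). Ctsa, the protective protein cathepsin A, had a range of 0.23 at 301, 257, 287 and 301 FPKM. The widest range on the list, 1.99, was that of Atp6v0d1, a subunit of the proton pump that acidifies lysosomes, at 48.3, 61.1, 86.3 and 21.0 FPKM. The median range of the list was 0.89, beside 1.78 over the 4540 genes with a median of at least 5 FPKM and 1.14 over the 359 genes with a median of 100 to 500 FPKM, which are nearer to it in level. It lay at 0.89 or above and at 1.07 or below under the deposited scale and 4 other scalings.

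Many lysosomal genes carry in their promoters the motif TCACGTG, the core of the element bound by the TFEB and TFE3 family of factors. The motif was sought on both strands (as TCACGTG or CACGTGA) in the 250 bases before each gene's start in the RefSeq promoters of GRCm38.p6, a later build than that of the deposited files, and overlapping matches were counted separately. It occurred in 3.13% of all 32851 promoters of this length and in 4.33% of measured symbols with a promoter entry (656 of 15159). Among genes at 1 FPKM or more in all 4 libraries it occurred in 7.29% (226 of 3099). Of 38 lysosomal genes (the list together with Ctsd, Ctsb, Ctsl and Ctsz), 30 had an entry and 7 of these held it, 23.3%. The 7 were Ctsd, Lamp1, Lgmn, Ctsa, Atp6v1a, Cd164 and Gaa. A symbol was counted when any of its promoters held the motif. Lgmn and Ctsa have 2 promoters each, of which 1 held it, and for Ctsa that one is shown. The windows of the most abundant gene and of the closely spread lysosomal genes Lamp1 and Ctsa are shown 5′ to 3′ in gene orientation, with every match in capitals.
Ctsd: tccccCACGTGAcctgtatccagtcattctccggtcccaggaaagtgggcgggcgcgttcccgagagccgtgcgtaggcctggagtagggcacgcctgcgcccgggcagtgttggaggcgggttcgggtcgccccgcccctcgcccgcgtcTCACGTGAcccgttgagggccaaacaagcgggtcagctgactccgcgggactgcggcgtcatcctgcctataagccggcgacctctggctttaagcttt
Lamp1: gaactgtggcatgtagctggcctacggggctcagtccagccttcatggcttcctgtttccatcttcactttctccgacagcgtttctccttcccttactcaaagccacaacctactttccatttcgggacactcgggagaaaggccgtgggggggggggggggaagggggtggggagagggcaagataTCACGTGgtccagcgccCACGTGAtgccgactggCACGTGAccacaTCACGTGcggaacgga
Ctsa: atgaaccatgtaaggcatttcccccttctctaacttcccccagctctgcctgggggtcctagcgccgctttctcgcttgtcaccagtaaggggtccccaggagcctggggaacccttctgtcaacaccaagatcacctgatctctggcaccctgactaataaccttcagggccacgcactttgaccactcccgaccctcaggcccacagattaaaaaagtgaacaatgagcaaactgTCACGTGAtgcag
The window of Ctsd lies at chr7:142387828-142388077 on the minus strand, that of Lamp1 at chr8:13158911-13159160 and that of Ctsa at chr2:164833523-164833772, both on the plus strand. Ctsd held 3 matches, which began 245, 99 and 98 bases before the start, the last pair overlapping in TCACGTGA. Lamp1 held 4 matches, which began 62, 45, 28 and 16 bases before the start. Ctsa held 2 overlapping matches, which began 13 and 12 bases before it. A match describes these letters and does not show that a factor binds there. The genes of TFEB and TFE3 are listed under the older symbols Tcfeb and Tcfe3, found after the values were seen. Tcfeb stood at 7.10, 10.6, 13.5 and 3.41 FPKM in microglia 1 to 4, and Tcfe3 at 7.45, 0.0325, 15.6 and 21.2 FPKM. The share was 8.76% among genes with a steady level between libraries (19 of 217) and 5.51% among variable ones (43 of 781), both groups being defined next.

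A gene was called steady when its highest library was at most 1.5-fold its lowest on the FPKM + 1 scale (a range of at most 0.58), and variable when it was at least 8-fold (a range of at least 3). Of the 4540 genes with a median of 5 FPKM or more, 280 were steady (6.17%) and 1086 variable (23.9%), with a median range of 1.78, or 3.44-fold. Spread fell with level. Among genes with a median of 5 to 20 FPKM, 34.1% of 2784 were variable and 3.41% steady, among those of 20 to 100 FPKM 10% of 1324 and 9.44%, and among those of 100 to 500 FPKM 0.557% of 359 and 13.4%. Of the 73 genes at 500 FPKM or more, 2 were variable, Spp1 and Ifitm3, and 12 were steady. Just inside and outside the limits lay Pfkfb4 (1.497-fold) and Pacs1 (1.501-fold) for steady genes and Med20 (8.004-fold) and Fam53a (7.99-fold) for variable ones. Both classes depended on which libraries were kept. Without microglia 2, 282 genes were variable (5.95% of those eligible) and 1026 steady. With microglia 1 and 4 alone, 38 were variable and 3015 steady. A range over fewer libraries cannot be wider for a given gene.

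**Figure D3:**
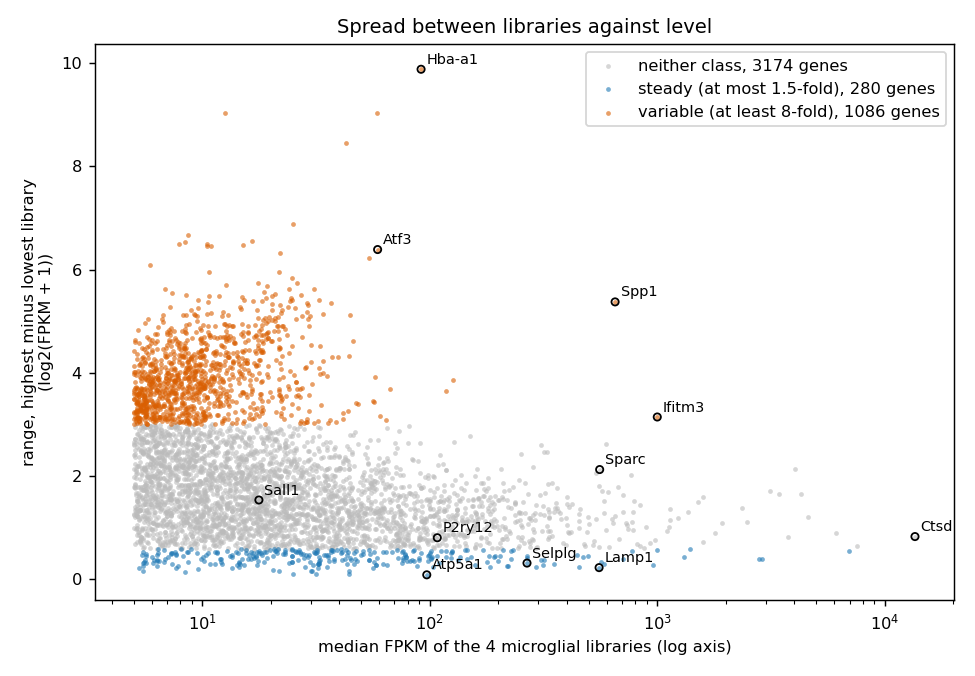
Range between the 4 microglial libraries, as the log2(FPKM + 1) of the highest minus that of the lowest, against the median FPKM on a log axis, 1 point per gene with a median of 5 FPKM or more. Steady genes (280) form the blue strip at the bottom, the 1086 variable genes (orange) crowd at low medians, and Hba-a1, Atf3, Spp1 and Ifitm3 stand out above genes of like level.

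The 12 steadiest genes with a median of 20 FPKM or more included genes of respiration, protein folding and the lysosome. Atp5a1, the alpha subunit of mitochondrial ATP synthase, stood at 101, 96.3, 94.9 and 97.9 FPKM, a range of 0.08. Rap1gds1, an exchange factor for small GTPases, had a range of 0.09 at 31.2, 33.3, 31.2 and 32.1 FPKM. Ptges3, a co-chaperone of Hsp90, had a range of 0.10 at 26.8, 25.4, 24.9 and 24.96 FPKM. In each of these the 4 libraries lay close together, and no library was highest in every one. Pttg1, the securin of chromosome separation, had a range of 0.10, Nfu1, an iron-sulfur cluster scaffold, 0.15, Cct8, a chaperonin subunit, 0.15, Tm9sf2, an endosomal membrane protein, 0.16, and Mrpl4, a mitochondrial ribosomal protein, 0.17. Dtnbp1, a subunit of a complex that sorts cargo to lysosome-related organelles, had a range of 0.21, and Orai1, the pore of store-operated calcium entry, 0.22. Lamp1 and Ctsa complete the 12. The set is relative to the deposited scale: under upper-quartile scaling 158 genes were steady, of which 21 were among the 280, and under median-of-ratios scaling 198, of which 94 were. Only 3 genes, Armc5, Asap1 and Snrpc, were steady as deposited and under all 4 scalings tried, and 31 when upper-quartile scaling was left out, among them Lamp1, Atp5a1, Ptges3, Mrpl4 and Pgk1. These last lists were drawn up after the values were seen. The range of Lamp1 lay between 0.22 and 0.74 over the scalings and that of Atp5a1 between 0.08 and 0.85.

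Classes of genes differed in how closely the libraries lay together. Cytoskeletal genes had a median range of 0.71 (21 genes, 6 steady, 0 variable), and translation factors 0.78 (16 genes, 4 steady, 1 variable). Injury-associated genes had a median range of 0.90 (27 genes, 4 steady, 2 variable), class I antigen presentation 1.13 (13 genes, 1 steady, 0 variable), oxidative phosphorylation 1.27 (75 genes, 5 steady, 3 variable) and microglial identity 1.30 (29 genes, 5 steady, 0 variable). At the other end stood transcription factors of microglia and macrophages with 1.85 (14 genes, 5 variable), immediate early genes with 1.98 (19 genes, 2 variable), cytokines and chemokines with 2.13 (14 genes, 5 variable), genes of lipid and cholesterol handling with 2.17 (13 genes, 6 variable) and cell cycle genes with 2.61 (10 genes, 4 variable). These counts are to be read against 6.17% steady and 23.9% variable over all genes, and against level. With members under 5 FPKM included, the median level was 179 FPKM for cytoskeletal genes, 4.17 for cell cycle genes and 9.32 for cytokines. Over the scalings the median range of cytoskeletal genes lay between 0.71 and 1.26, that of identity genes between 1.16 and 1.41 and that of cell cycle genes between 2.61 and 3.04. The ranges were narrower without microglia 2 and 3, although a range over fewer libraries cannot be wider for a given gene. Without microglia 2 the median range was 1.09 over all genes, 0.77 for identity genes, 1.18 for transcription factors (1 of 13 variable), 1.31 for immediate early genes, 1.25 for cytokines (2 of 13 variable), 1.04 for lipid handling (4 of 13 variable) and 2.55 for cell cycle genes (4 of 12 variable). With microglia 1 and 4 alone it was 0.45 over all genes and 0.62 for cell cycle genes, and 0 of 17 cell cycle genes, 0 of 13 of lipid handling, 0 of 15 cytokines and 0 of 15 transcription factors were variable. Counts of the library in which a list's genes were lowest or highest are to be read against all 4540 genes. Of these 17.1%, 38.2%, 23.4% and 21.3% were lowest in microglia 1 to 4, and 15.8%, 32.9%, 32.2% and 19.1% were highest there.

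**Figure D4:**
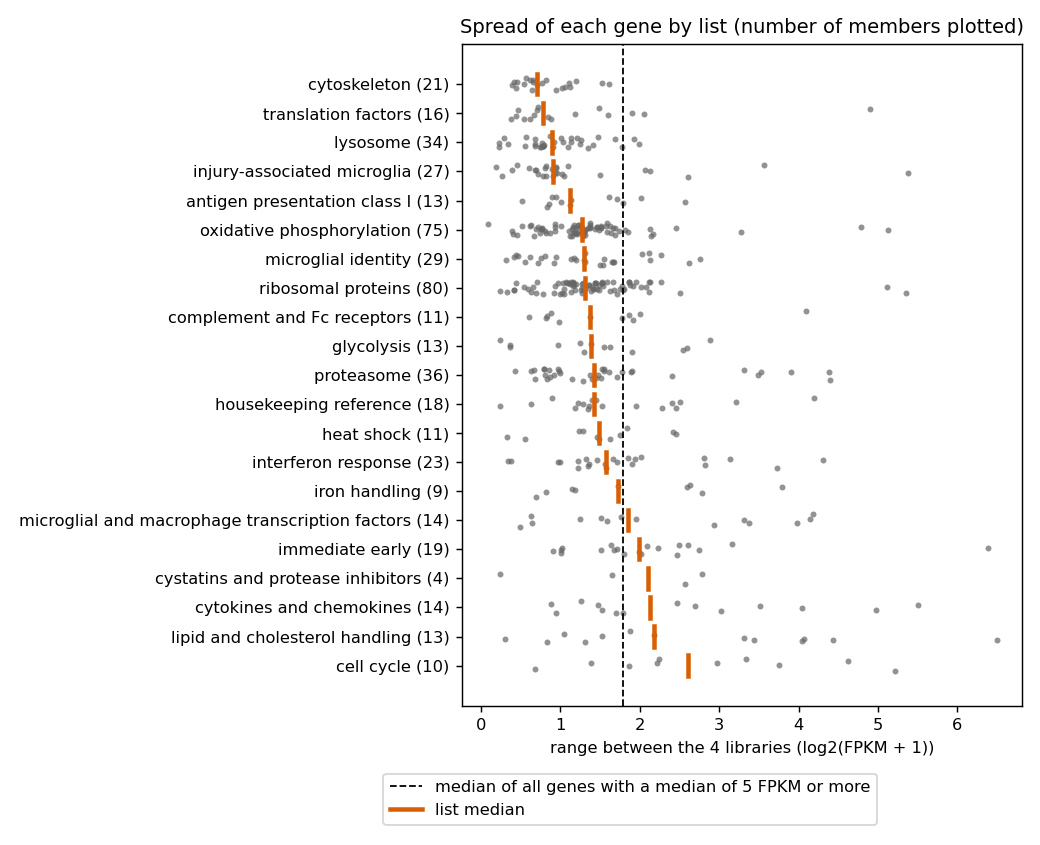
Range between the 4 microglial libraries (log2(FPKM + 1), highest minus lowest) for each gene (grey points) of 21 lists, the orange bar being the list's median and the dashed line the median of all genes with a median of 5 FPKM or more. The medians of cytoskeletal, translation and lysosomal genes lie to the left of the line and those of cytokines, lipid handling and cell cycle genes to its right, with single genes far out in many lists.

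Among the genes of identity the closest was Selplg, the selectin ligand PSGL-1, at 243, 301, 251 and 284 FPKM, a range of 0.31. The widest was Entpd1, the surface enzyme CD39 that breaks down ATP, at 20.7, 2.85, 12.8 and 25.01 FPKM, a range of 2.76. The identity genes were lowest in microglia 2 for 13 of 29 as deposited, beside 38.2% of all genes. Under upper-quartile scaling they were lowest there for 5, beside 25.2% of all genes. Among the injury-associated genes Igf1, a growth factor, was closest, at 9.57, 10.2, 8.85 and 9.66 FPKM. The widest was Spp1, the secreted phosphoprotein osteopontin, at 1036, 24.0, 770.4 and 535 FPKM. Its range was 5.37, set by microglia 2 alone, and stayed between 4.68 and 5.71 over the scalings.

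Transcription factors ranged from close to far apart. Irf8, which microglia need to develop, was closest, at 82.6, 77.2, 78.8 and 58.6 FPKM, and Cebpb, an activator of inflammatory genes, stood at 70.0, 167, 81.1 and 75.4 FPKM. The gene of PU.1, the master factor of macrophages, is listed under its older symbol Sfpi1, found after the values were seen, and stood at 89.5, 140.1, 40.6 and 93.8 FPKM. Mef2c, a factor that restrains microglial activation, was the most variable of its list, at 17.6, 0.0236, 16.6 and 17.3 FPKM. Its 3 other libraries differed little, so that its range of 4.18 rested on microglia 2. Irf5, a driver of inflammatory cytokine genes, stood at 17.2, 50.7, 3.86 and 75.9 FPKM, highest in microglia 4 and lowest in microglia 3.

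Immediate early genes, which cells switch on within minutes of a stimulus and also during tissue dissociation, were lowest in microglia 1 for 11 of 19 members, beside 17.1% of all genes, and the list summed to 331, 673, 737 and 671 FPKM. Dusp1, a phosphatase that shuts off stress kinases, stood at 9.22, 54.4, 66.9 and 90.0 FPKM, and Junb, a subunit of AP-1, at 67.1, 222, 93.9 and 137 FPKM. Atf3, a stress-induced factor, was lowest in microglia 2 instead, at 45.4, 0.462, 121 and 72.6 FPKM, and had the widest range of the list, 6.39. Egr1, an early growth-response factor, was the closest of the list, at 17.9, 34.7, 29.0 and 25.2 FPKM. Heat shock genes had another order: they were lowest in microglia 2 for 8 of 11 members, beside 38.2% of all genes, and summed to 944, 429, 810.4 and 1601 FPKM. The heat shock list had 2 steady and 0 variable genes and a median range of 1.49. Hspa8, the constitutive cytosolic Hsp70, stood at 388, 131, 264 and 726 FPKM, and Hspa5, the chaperone of the endoplasmic reticulum, at 287, 109, 216 and 589 FPKM. Both were highest in microglia 4 and lowest in microglia 2. Over the scalings microglia 1 was lowest for 10 to 12 immediate early genes, and microglia 2 for 4 to 8 heat shock genes. Over all genes these libraries were lowest for 13.1% to 17.5% and for 25.2% to 41.6%. Whether handling of the tissue or stimulation in the eye moved these genes was not tested.

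Cytokine genes were mostly low, with a few chemokines high. Ccl2, the main attractant of monocytes, stood at 239, 1332, 307 and 329 FPKM, and Ccl5, an attractant of T cells and monocytes, at 168, 232, 195 and 80.0 FPKM. Mif, a constitutive cytokine, stood at 338, 308, 316 and 176 FPKM. Microglia 2 was highest for 9 of the 14 cytokine genes with a median of 5 FPKM or more, and for 6 to 11 over the scalings. Over all genes it was highest for 32.9% as deposited and for 28.3% to 55.5% over the scalings. Cxcl16 was the closest of the list, at 103, 149.9, 80.8 and 149 FPKM, and Il1b, the interleukin produced by inflammasome-active macrophages, the widest, at 12.5, 44.5, listed at 0, and 4.49 FPKM. Cxcl13, a B-cell attractant, had 13.9, 3.40 and 100.2 FPKM in microglia 1, 3 and 4 and a listed value of 0 in microglia 2. Ccl8, a monocyte attractant, stood at 17.5 FPKM, was listed at 0, and stood at 93.1 and 15.6 FPKM in the same order. These high values each belonged to a single library, microglia 4 for Cxcl13 and microglia 3 for Ccl8.

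Interferon-stimulated genes split in their spread. Ifi27l2a stood at 929, 1558, 1339.9 and 609 FPKM in microglia 1 to 4, Ifitm3, which blocks the entry of viruses, at 487, 1513, 1571 and 177 FPKM, and Bst2, which tethers virions to the membrane, at 279, 525, 606 and 219 FPKM. All 3 were lower in microglia 1 and 4 than in microglia 2 and 3. Ifit3, an antiviral RNA-binding protein, was the closest of the list, at 79.9, 75.8, 91.1 and 96.4 FPKM, and Zbp1, a sensor of Z-form nucleic acids, the most variable, at 38.5, 1.28, 35.9 and 44.1 FPKM. The interferon list had a median range of 1.57 (23 genes, 2 steady, 3 variable). In class I antigen presentation 8 of 13 genes were lowest in microglia 4, and 5 to 8 over the scalings. Over all genes microglia 4 was lowest for 21.3% as deposited and for 15.4% to 29.0% over the scalings. B2m, the invariant light chain, stood at 2862, 3399, 4647 and 1419.99 FPKM, H2-D1 at 1286, 959, 1769 and 876 FPKM, and H2-K1 at 651, 694, 1055 and 304 FPKM. Tapbp, which loads peptides onto class I, was the closest, at 66.9, 95.8, 89.3 and 94.4 FPKM. H2-D1 and H2-K1 are similar in sequence, and how shared reads were divided between such genes is not known.

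Genes of ribosomal proteins largely shared 1 order of the libraries. They took 6.70%, 6.57%, 10.1% and 5.29% of the FPKM of microglia 1 to 4. Of the 80 with a median of 5 FPKM or more (6 steady, 2 variable, median range 1.31), 68 were highest in microglia 3 and 64 lowest in microglia 4. Over all genes 32.2% were highest in microglia 3 and 21.3% lowest in microglia 4. Under upper-quartile scaling 45 were highest in microglia 2 and 73 lowest in microglia 4, beside 55.5% and 27.4% of all genes. The library that was highest most often thus depended on the scaling, while microglia 4 was lowest most often under each (40 to 74 genes). Rpl41 stood at 1439, 1745.6, 3404 and 1133 FPKM, Rps18 at 927, 1277, 1584 and 829 FPKM, and Rps14 at 737, 940.1, 1603 and 591 FPKM. Rps3a did not share that order, at 182, 200.3, 169 and 184 FPKM. Many ribosomal protein genes have processed copies elsewhere in the genome, and their reads may be divided among them. Rpl30, at 18.1, 7.46e-05, 39.97 and 39.9 FPKM, had the widest range of the list. Genes of oxidative phosphorylation were highest in microglia 3 for 42 of 75 and in microglia 2 for 27, beside 32.2% and 32.9% of all genes. Under upper-quartile scaling they were highest there for 15 and 58, beside 19.5% and 55.5% of all genes. Cox6a1, a subunit of cytochrome oxidase, stood at 572, 1184, 699.8 and 531 FPKM, and Uqcr11, of the cytochrome bc1 complex, at 258, 586, 681 and 248 FPKM.

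Markers of dividing cells were uneven, and 8 of the 26 on the list reached 1 FPKM in all 4 libraries, beside 19.8% of all symbols. Stmn1, which destabilises microtubules, stood at 126, 86.4, 15.1 and 75.9 FPKM, Pcna, the sliding clamp of DNA replication, at 88.1, 78.4, 33.2 and 47.5 FPKM, and H2afz, a histone variant, at 234, 426, 116 and 187 FPKM. All 3 were lowest in microglia 3, as were 6 of the 10 cell cycle genes with a median of 5 FPKM or more (6 or 7 over the scalings). Over all genes microglia 3 was lowest for 23.4% as deposited and for up to 29.9% over the scalings. Ccnb2, a mitotic cyclin, stood at 19.7, 36.1 and 21.0 FPKM in microglia 1, 2 and 4 and was listed at 0 in microglia 3. Tk1, the thymidine kinase of S phase, stood at 13.6, 77.9, 0.525 and 11.9 FPKM. Mcm3, part of the replicative helicase, was the closest, at 7.80, 11.5, 10.9 and 13.1 FPKM. Mki67, a proliferation marker, was low at 3.45, 5.71, 0.716 and 4.70 FPKM, as was Top2a at 4.92, 0.712, 0.0102 and 9.11 FPKM. The list summed to 612, 691, 212 and 513 FPKM, most of it from Stmn1, Pcna and H2afz.

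Lipid handling held both close and distant genes. Plin2, the coat protein of lipid droplets, stood at 191, 339, 201 and 235 FPKM, and Abcg1, an exporter of cholesterol, at 13.5, 16.8, 15.4 and 14.1 FPKM. Msr1, the scavenger receptor A, stood at 39.7, 13.2, 6.34 and 71.6 FPKM. Apoc1 and Apoc4, which lie in the same gene cluster as Apoe, had ranges of 6.499 and 6.08. Apoc1 stood at 8.76 FPKM, was listed at 0, and stood at 89.4 and 12.3 FPKM in microglia 1 to 4, and Apoc4 stood at 9.21, 0.184, 79.2 and 2.63 FPKM. Like Apoe, both were highest in microglia 3 and lowest in microglia 2.

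Most variable genes were under 1 FPKM in a single library. Of the 1086, 813 had 1 library under 1 FPKM, 26 had 2 and 247 had none, and 329 had a library listed at 0. These counts follow in part from the rules. A median of at least 5 FPKM over 4 libraries excludes genes with 3 libraries under 1 FPKM and limits those with 2. With a pseudocount of 1, a gene whose highest library is low can be variable only if another library is under 1 FPKM. The lowest library was microglia 2 for 737 of the 1086 variable genes (67.9%), microglia 3 for 223, microglia 1 for 67 and microglia 4 for 59. Counted the other way, 647 genes (14.3%) lay at least 4-fold below every other library in microglia 2, 153 (3.37%) in microglia 3, 24 (0.529%) in microglia 1 and 22 (0.485%) in microglia 4. Genes at least 4-fold above every other library numbered 51 (1.12%) in microglia 2, 18 (0.396%) in microglia 3, 0 in microglia 1 and 1 (0.022%) in microglia 4. Both counts took only genes with a median of at least 5 FPKM. A gene high in 1 library and under 5 FPKM in the others was therefore left out, whereas a gene lost from 1 library could enter. The counts below and above are thus not like for like. Compared in pairs, 63.5% of the 4540 genes lay within 1.5-fold between microglia 1 and 4, against 29.0% to 41.7% in the other pairs. Microglia 1 had the lowest estimated depth and lay closest to microglia 4.

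**Figure D5:**
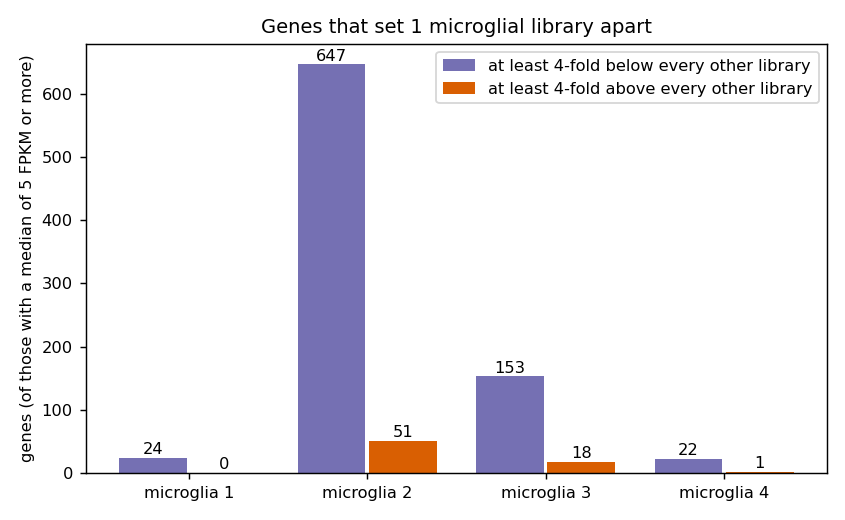
Number of genes (of those with a median of 5 FPKM or more) that lay at least 4-fold below (purple) or above (orange) every other microglial library, for each library. Microglia 2 has 647 genes below and 51 above, microglia 3 has 153 and 18, and microglia 1 and 4 have at most 24. The limit on the median leaves out genes high in 1 library and under 5 FPKM in the others, so the bars are not like for like.

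In microglia 2, genes at 20 FPKM or more in the other libraries and under 1 FPKM in it numbered 26. They included Atf3, Snx1, a sorting nexin of endosomes, at 35.1, listed at 0, 26.7 and 30.9 FPKM, and Drg1, a GTP-binding protein, at 40.04, 0.0365, 42.8 and 25.1 FPKM. The same library was highest for 32.9% of the 4540 genes and lay at least 4-fold above every other library for 51 of them. Among the 51, Thoc6, of the mRNA export complex THO, stood at 8.19, 93.3, 0.0415 and 7.69 FPKM. Pafah1b3, a subunit of a phospholipid acetylhydrolase, stood at 5.97, 45.9, 4.51 and 4.33 FPKM. Sco2, a copper chaperone of cytochrome oxidase, stood at 10.2 and 92.1 FPKM, was listed at 0, and stood at 6.58 FPKM. Over all 21837 symbols, those at 20 FPKM or more in the other libraries and under 1 FPKM in 1 numbered 0, 26, 5 and 4 in microglia 1 to 4. The reverse, 20 FPKM or more in 1 library and under 1 FPKM in the others, held for 0, 9, 8 and 1. Among the 5 lost in microglia 3 were B4galnt1, a ganglioside synthase, at 24.0, 25.7, 0.172 and 25.7 FPKM, and Trappc4, of a vesicle-tethering complex, at 28.7, 35.4, 0.106 and 29.4 FPKM. B4galnt1 lay within a narrow band in the remaining 3 libraries. In microglia 1 the genes farthest below were Hebp1, a haem-binding protein, at 2.61, 38.7, 40.1 and 70.5 FPKM, Gnat1, the transducin alpha chain of rods, at 0.249, 20.7, 10.7 and 22.8 FPKM, and Gadd45g, a stress-response gene, at 1.61, 27.6, 21.4 and 23.1 FPKM, and in microglia 4, beside haemoglobins, Ugt1a6b, a glucuronosyltransferase, at 11.8, 20.1, 13.7 and 0.00163 FPKM.

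The widest ranges of all belonged to haemoglobin. Hba-a1, an alpha globin gene, stood at 108, 75.5, 1407 and 0.493 FPKM, a range of 9.88, and Hbb-b2, a beta globin gene, at 32.4, 53.6, 409.6 and 0.168 FPKM, a range of 8.46. Both were highest in microglia 3 and near 0 in microglia 4. The globin genes are near-identical copies, and how reads were divided among them is uncertain. Other abundant genes differed in their order: Cst3 was likewise highest in microglia 3 and lowest in microglia 4, whereas Fth1 and Ftl1 were highest in microglia 2 and Ctsd in microglia 4. The part of blood in differences of other genes was not tested. Complement and Fc receptor genes had a median range of 1.38 (11 genes, 0 steady, 1 variable), and iron handling genes 1.72 (9 genes, 0 steady, 1 variable). In the first list lay Fcgr3, an activating receptor for IgG, at 266, 401, 477 and 288 FPKM, and Fcgr2b, the inhibitory one, at 101, 68.5, 77.8 and 104 FPKM.

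Many markers of other cells of the eye and blood were low or rested on single genes. Photoreceptor genes were an exception: several rod genes stood well above 1 FPKM in microglia 2, 3 and 4, and several cone genes in microglia 3. The 14 rod photoreceptor genes summed to 33.4, 172, 242 and 125 FPKM in microglia 1 to 4, and 4 of them reached 1 FPKM in all 4 libraries. They were led by Sag, the arrestin of rods, at 8.93, 82.5, 35.1 and 29.6 FPKM. Pde6g, another rod gene, stood at 7.39, 31.6, 98.4 and 21.0 FPKM and exceeded Sag in microglia 3. Rod transcripts were lowest in microglia 1 for 5 of the 6 genes with a median of 5 FPKM or more, beside 17.1% of all genes. The cone list summed to between 187 and 632 FPKM, led by Gngt2, a G protein gamma chain, at 192, 313, 379 and 184 FPKM. Cone transcripts stood out in microglia 3, where the genes beside Gngt2 summed to 253 FPKM. There Pde6h, a cone phosphodiesterase subunit, stood at 134 FPKM and was listed at 0 elsewhere, Gnb3, a G protein beta chain, at 56.9 FPKM, and Opn1mw, the middle-wave cone opsin, at 40.06 FPKM. Opn1sw, the short-wave opsin, stood at 0.339, 11.2, 12.02 and 0.0208 FPKM. Pde6h and Opn1mw were singled out after their values were seen. In the lens list 7 of 8 genes stayed under 1 FPKM in every library and Cryba4 accounted for nearly all of the sum of 28.8 to 114 FPKM. The Müller glia list summed to between 59.3 and 134 FPKM, led by Glul, glutamine synthetase, at 46.3, 44.4, 46.6 and 67.6 FPKM, with 6 of 10 genes under 1 FPKM in every library, beside 45.5% of all symbols. Its highest sum was that of microglia 2, where Crym, a thyroid hormone binding protein, stood at 71.0 FPKM and exceeded Glul, and Crym was at 5.57 FPKM or less in the other libraries. The 5 astrocyte genes summed to between 0.809 and 7.71 FPKM, and Gfap, their defining filament, was listed at 0 in microglia 3 and 4 and stood at 3.12 FPKM in microglia 2. Neuronal transcripts of the inner retina summed to between 13.2 and 89.0 FPKM over 17 genes. In microglia 3, which had the highest sum, Pcp2 stood at 53.3 FPKM.

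Among blood cells, the 10 T and NK cell genes summed to at most 3.01 FPKM. Of the 10 neutrophil genes, Csf3r, the receptor for granulocyte growth factor, stood at 33.9, 34.98, 36.3 and 26.04 FPKM, and the others together reached at most 1.24 FPKM. Under 1 FPKM in every library were 7 of the 10, beside 45.5% of all symbols, and 6 were listed at 0 in all 4. The B cell list rested on Cd79b, at 13.9 FPKM, listed at 0, 7.84 and 34.8 FPKM. Monocyte genes summed to between 18.3 and 79.9 FPKM, led by Fn1, fibronectin, at 70.5, 15.9, 58.4 and 44.6 FPKM, and the remaining 9 reached at most 10.7 FPKM. Of the dendritic cell list, Cd74, the invariant chain of class II, stood at 30.8, 47.4, 32.9 and 139.6 FPKM and H2-Ab1, a class II chain, at 20.8, 28.1, 8.70 and 33.7 FPKM, both highest in microglia 4. The perivascular macrophage list held Stab1, a scavenger receptor, at 15.3, 13.9, 12.5 and 15.7 FPKM and Folr2, a folate receptor, at 3.39, 38.4, 16.4 and 1.19 FPKM. Endothelial genes summed to between 2.07 and 4.07 FPKM, those of pericytes and smooth muscle to between 10.4 and 16.3 FPKM, and those of the pigment epithelium to at most 2.90 FPKM. The part of these other cells in the differences between libraries was not tested.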

How the data were processed

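Messenger RNA was sequenced in 4 libraries of retinal microglia and 4 of infiltrating macrophages, the latter used only for counts set side by side. The tools named in the submitters' processing notes are bcl2fastq 1.8.4 and Cufflinks 2.1.1, and the build is mm9. Neither an aligner nor a gene annotation nor a treatment of shared reads is named there. A deposited table for each library holds, per the file headers, an FPKM per gene row, estimated by the authors. FPKM is relative to all RNA of the library, so very abundant transcripts lower the others.

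Of 23021 rows for 22558 symbols, rows of one symbol were summed (463 rows repeat a symbol). Symbols with a FAIL status (9) and microRNA and snoRNA symbols (712) were left out. The latter took between 4.68% and 10.9% of FPKM. Depth was estimated from the step of 1 fragment in genes annotated with 1 transcript only, 800 bases or longer, assuming fragments of 150 bases, and is approximate. Since the tables hold no counts, no sampling interval is given. Ranges used log2(FPKM + 1), with a pseudocount of 1, which understates the spread of low genes.

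No p-value was computed: the 4 libraries are 1 group, and each result is a count, a level or a range. The range code was tested on simulated data. Alternatives were 4 scalings, other thresholds and pseudocounts, and leaving out libraries. Leaving out microglia 2 and 3 together was added after the data were seen.

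Named genes are 7 anchors (among them Sall1, P2ry12, Sparc, Tmem119, Cx3cr1 and Csf1r), the 25 highest by median, the 12 steadiest with a median of at least 20 FPKM and the 20 of widest range with a median of at least 5 FPKM. For each library the 4 genes farthest above and the 4 farthest below the others were added, and in each of 38 lists the 3 highest, the steadiest and the most variable member. Clone and predicted-gene symbols were left out of all but the lists. This named 208 genes. Not all of them are printed, and some are not reported here. The members, lists and rules were chosen with earlier results of these data known. The authors' values were handled with Python 3.11.15, pandas 2.3.3, numpy 2.4.6 and matplotlib 3.10.9.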

Additional observations from a re-analysis of the deposited data

Results flagged for a closer look

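Among 203 of the named genes, printed or not, there were 24 in which 1 library lay far from the other 3, measured as its gap to the nearest library divided by the whole range, above the 95% critical value of Dixon's test for 4 values. Chance gives such a flag in about 1 of 20 genes, and genes chosen for a wide range are among them, so the number is a description. Microglia 2 lay above the others for Aldoa (0.866, 1742 FPKM), Cd52 (0.873, 5012 FPKM), Cd81 (0.939, 3593 FPKM), Cebpb (0.831, 167 FPKM), Ftl1 (0.831, 6114 FPKM), Gfap (0.976, 3.12 FPKM), Pafah1b3 (0.876, 45.9 FPKM) and Ubb (0.853, 2507 FPKM). It lay below them for Drg1 (0.861, 0.0365 FPKM), Fam108c (0.834, listed at 0), Mef2c (0.982, 0.0236 FPKM), Snap25 (0.831, 1.008 FPKM), Snx1 (0.926, listed at 0) and Zbp1 (0.932, 1.28 FPKM). Microglia 3 lay below for B4galnt1 (0.978, 0.172 FPKM), Ccnb2 (0.838, listed at 0) and Trappc4 (0.942, 0.106 FPKM). Microglia 4 lay above for Best1 (0.83, 1.61 FPKM), Cd79a (1, 0.326 FPKM) and Glul (0.889, 67.6 FPKM). It lay below for Eif2s3y (0.89, 0.0293 FPKM), Mif (0.86, 176 FPKM) and Ugt1a6b (0.836, 0.00163 FPKM). Microglia 1 lay below for Gadd45g (0.898, 1.61 FPKM). The first number in each bracket is the gap as a share of the range and the second the level in the outlying library. Best1, Cd79a and Gfap are markers of other cells that were low in every library.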

How the results depend on the processing

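The share of FPKM held by the 100 highest genes was 44.7% and lay between 43.8% and 45.4% over all alternatives, and the order of the most abundant genes does not depend on scaling within a library. Steady genes numbered 280 as deposited, 309 with equal sums, 302 after quantile normalization, 198 with median-of-ratios and 158 with upper-quartile scaling, 441 with a pseudocount of 5, 5046 with no filter on the median and 185 with a median of at least 20 FPKM. Upper-quartile scaling divided microglia 2 by 0.663, which raised it, and the others by 1.09 to 1.19. It shared 21 steady genes with the deposited scale. Variable genes numbered 1086, between 817 and 1148 over the 4 scalings, 117 with a pseudocount of 5, 2192 with no filter and 137 with a median of at least 20 FPKM, and 700 were variable as deposited and under the 4 scalings. Leaving out 1 library in turn gave 477 to 1026 steady and 282 to 897 variable genes, and 4470 to 6140 genes at 1 FPKM or more, the largest shift coming from microglia 2 each time. Without replicates 2 and 3, there were 7563 genes at 1 FPKM or more, 3015 steady and 38 variable genes. A range over fewer libraries is narrower by construction. No paired analysis was possible because the 4 libraries are 1 group and no test was run. At the estimated depths, 1 fragment counted on 2 kb of transcript is worth between 0.0234 and 0.0426 FPKM, which limits the lowest levels.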

Other observations

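The same counts were made in the 4 macrophage libraries. Of 21837 symbols, 6849 reached 1 FPKM in all 4 macrophage libraries, against 4328 in microglia. Among 5449 macrophage genes with a median of 5 FPKM or more, 136 were steady (2.5%) and 427 variable (7.84%), with a median range of 1.75, close to the 1.78 of microglia. The macrophage libraries differed more in their FPKM sums, from 188330 to 480806 against 274056 to 350117 in microglia. Of the variable macrophage genes, macrophage 7 was lowest for 91.8% and macrophage 6 highest for 76.3%. The median ranges of the populations are therefore not like for like. The difference between the populations was not tested.

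Genes often used to normalise expression were not all close between libraries. Of 18 such genes with a median of 5 FPKM or more, 1 was steady and 2 variable, with a median range of 1.43. These counts and those of the lists below are to be read against 6.17% steady and 23.9% variable over all genes. The median range over all genes was 1.78. Ppia, a prolyl isomerase, was the steady one, at 414, 489, 466 and 439 FPKM in microglia 1 to 4. Proteasome genes had a median range of 1.42 (36 genes, 1 steady, 6 variable). Psmb8, a catalytic subunit of the immunoproteasome, stood at 143, 437, 204 and 142 FPKM, and Psmd5, an assembly chaperone, at 17.8, 0.183, 8.13 and 23.8 FPKM. Glycolytic genes had a median range of 1.38 (13 genes, 3 steady, 0 variable), with Pgk1 at 108, 92.3, 109 and 99.9 FPKM and Aldoa at 769.5, 1742, 708 and 799 FPKM. Of the cystatins and protease inhibitors, 4 genes had a median of 5 FPKM or more, with a median range of 2.11 (1 steady, 0 variable). Serpine2, an inhibitor of serine proteases, stood at 207, 49.3, 94.8 and 345 FPKM, and Serpinb6a, an intracellular inhibitor, at 12.2, 25.5, 76.9 and 45.0 FPKM.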
